A study of Mus musculus with 16 samples.

Results

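The 10 genes of the Notch pathway and of secretory cell fate described here were followed in EpCAM+ cells sorted from the distal colon of 16 mice. The genes were taken by name, and all 10 of 10 were found among the 22396 gene symbols of the deposited tables. They are 3 receptors (Notch1, Notch2 and Notch3), 4 ligands (Dll1, Dll4, Jag1 and Jag2), the target gene Hes1, and the secretory fate factors Atoh1 and Gfi1. In Tnfr2-f/f mice, exon 2 of Tnfrsf1b, the gene for TNF receptor 2, lies between loxP sites, and these mice served as controls. Vil1::Cre;Tnfr2-f/f mice also carry Cre under the Vil1 promoter, which is active in intestinal epithelium, and are here called mice labelled knockout. The labels give water to 4 controls and 5 mice labelled knockout, and 3% dextran sulfate sodium (DSS), which injures the colonic epithelium, for 6 days to 3 controls and 4 mice labelled knockout. Dissection was on day 12 by the labels. The study's methods give 8-week-old mice, 3.5% DSS, dissection of injured regions after DSS, and uninjured mice taken on day 0. The 7 DSS mice were female and lived in cages c and d, the 4 water mice of cage a were male, and the 5 water mice of cage b were female. No cage held mice of both treatments, so treatment and cage cannot be told apart. The paper states that the genotypes were compared within litters. Nothing in the labels says which mice were litter mates, or that those of a cage were, so litter is not in the fits below. Each library came from 1 mouse.

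Notch receptors are cut when a Delta or Jagged ligand on a neighbouring cell pulls on them. ADAM proteases make the first cut and gamma-secretase the second, and the freed receptor fragment joins RBPJ in the nucleus, where it turns on genes such as Hes1. In the intestinal crypt, HES1 represses Atoh1, the factor that starts the secretory program. Cells with Notch signalling therefore tend to become absorptive, while cells with ATOH1 show Delta ligands to their neighbours and become goblet, enteroendocrine or other secretory cells. GFI1 acts after ATOH1 and favours goblet over enteroendocrine fate.

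Values are TPM, a relative transcript abundance corrected for transcript length, summed over the transcripts listed for a gene. Water and DSS mice stand in 2 tables that were scaled separately, so levels set across treatments were put on one scale by median-of-ratios rescaling of all 16 mice and are called rescaled TPM. They are described without a test. The deposited TPM of a mouse summed to between 487469 and 861109, and 10310 to 10961 genes were at 1 TPM or more. The tables hold no read counts, so the depth behind a value is unknown. Tnfrsf1b overlapped between mice labelled knockout and controls, at 10.0 to 16.9 rescaled TPM against 12.5 to 17.5 in water controls, and at 11.7 to 23.1 against 11.0 to 19.8 in DSS controls. Its log2 difference was -0.23 with an SE of 0.16 in water (limma adjusted p of 0.865) and 0.14 with an SE of 0.27 after DSS (limma adjusted p of 1.00). Its single listed transcript does not show whether exon 2 was lost. The overlap in TPM therefore does not decide whether the deletion took place. By flow cytometry, the paper reports less of the receptor protein on EpCAM+ cells of the knockout genotype than of control genotypes. It reports a similar result by RT-qPCR. Epcam (695 ± 50.3 rescaled TPM in water mice, SD, n = 9, and 815 ± 26.1 in DSS mice, SD, n = 7) and Cdh1, both of which mark epithelium, were high in every mouse. DSS control 3 stood apart: of 2720 genes in which the other 6 DSS mice all lay to one side of the water mice, it lay within the water range in 50.4%, against 1.00% to 7.94% when each other DSS mouse was set aside in turn. Calls and counts of DSS against water mice that change when this mouse is left out are given both ways.

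Hes1 was the most abundant of the 10 genes in each group, followed by Atoh1, except in DSS mice labelled knockout, where Notch1 stood second. In water controls Hes1 averaged 37.8 ± 9.90 rescaled TPM (SD, n = 4) and Atoh1 14.4 ± 3.55, with no overlap between them or with the next gene. Notch1, at 7.89 ± 1.11, and Dll1, at 7.23 ± 0.865, overlapped, as did Notch2, at 5.24 ± 0.220, and Dll4, at 4.86 ± 0.654. Jag1 followed at 2.71 ± 0.241, and Notch3, Jag2 and Gfi1 lay below 1 TPM on average and overlapped in turn. Over the 16 mice 7 of the 10 genes had a mean rescaled TPM that reached 1, and these are the genes set against the background of all 11262 genes past the same mean. Among the receptors Notch1 was thus the most abundant, and Dll1 and Dll4 were the leading ligands of water mice. After DSS the order of the ligands was different: Jag1, at 5.28 ± 0.808 in DSS controls (SD, n = 3) and 5.59 ± 0.559 in DSS mice labelled knockout (SD, n = 4), had the highest mean, although its range overlapped that of Dll4.

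Promoters are shown for Notch2, Jag1 and Atoh1, a receptor and a ligand that did not overlap between treatments and a secretory factor that overlapped only through DSS control 3, whose windows reach outside annotated exons, so that the letters read by HES proteins can be seen. RefSeq's table for GRCm38, the mm10 build named in the submitters' processing notes, held promoters of 9 of the 10 genes, all but Hes1. The 250 bases before the RefSeq start were searched on both strands for TGGGAA, the core read by RBPJ, CACGNG, a class of site bound by HES and HEY repressors, and CAGNTG, the E-box read by ATOH1. Matches of different motifs did not overlap in the windows of these genes. None of the 11 windows of the 9 genes held TGGGAA, which 21.6% of 32851 promoters hold. CACGNG was found in 23.5% of all promoters and in the windows of Notch2, Notch3, Dll1, Dll4, Jag1 and Atoh1, with 3 matches in Atoh1, a number that 1.11% of promoters reach. CAGNTG was found in 44.8% of all promoters, and here in 1 window each of Dll1, Jag1 and Gfi1. A match is a description of the letters only. In GENCODE M21, Notch2 (ENSMUSG00000027878) spans chr3:98013527-98150361, Jag1 (ENSMUSG00000027276) chr2:137081456-137116644 and Atoh1 (ENSMUSG00000073043) chr6:64729125-64731245. The stretches outside annotated exons are, 5′ to 3′ on the strand of the gene and with CACGNG matches in capitals, chr3:98013288-98013526 (plus strand, upstream of exon 1 of Notch2), chr2:137116645-137116770 (minus strand, upstream of exon 1 of Jag1) and chr6:64728875-64729124 (plus strand, upstream of the single exon of Atoh1). The windows of Dll1 are not printed, since exons annotated on the opposite strand cover both and an exon of Dll1 covers part of one, and the absence of a motif says only that its letters are not in these windows.
Notch2: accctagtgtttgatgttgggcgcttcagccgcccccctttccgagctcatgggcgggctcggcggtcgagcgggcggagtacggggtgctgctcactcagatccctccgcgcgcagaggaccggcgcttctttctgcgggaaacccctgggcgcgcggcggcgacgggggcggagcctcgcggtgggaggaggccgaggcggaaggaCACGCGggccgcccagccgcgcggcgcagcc
Jag1: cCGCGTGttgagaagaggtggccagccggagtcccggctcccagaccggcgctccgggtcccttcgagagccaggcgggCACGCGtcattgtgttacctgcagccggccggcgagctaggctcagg
Atoh1: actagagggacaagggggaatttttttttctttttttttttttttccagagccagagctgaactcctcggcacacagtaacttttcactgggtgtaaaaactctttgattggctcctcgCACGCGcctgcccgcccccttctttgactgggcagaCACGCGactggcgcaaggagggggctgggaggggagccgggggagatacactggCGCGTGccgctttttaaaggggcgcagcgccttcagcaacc

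**Figure D1:**
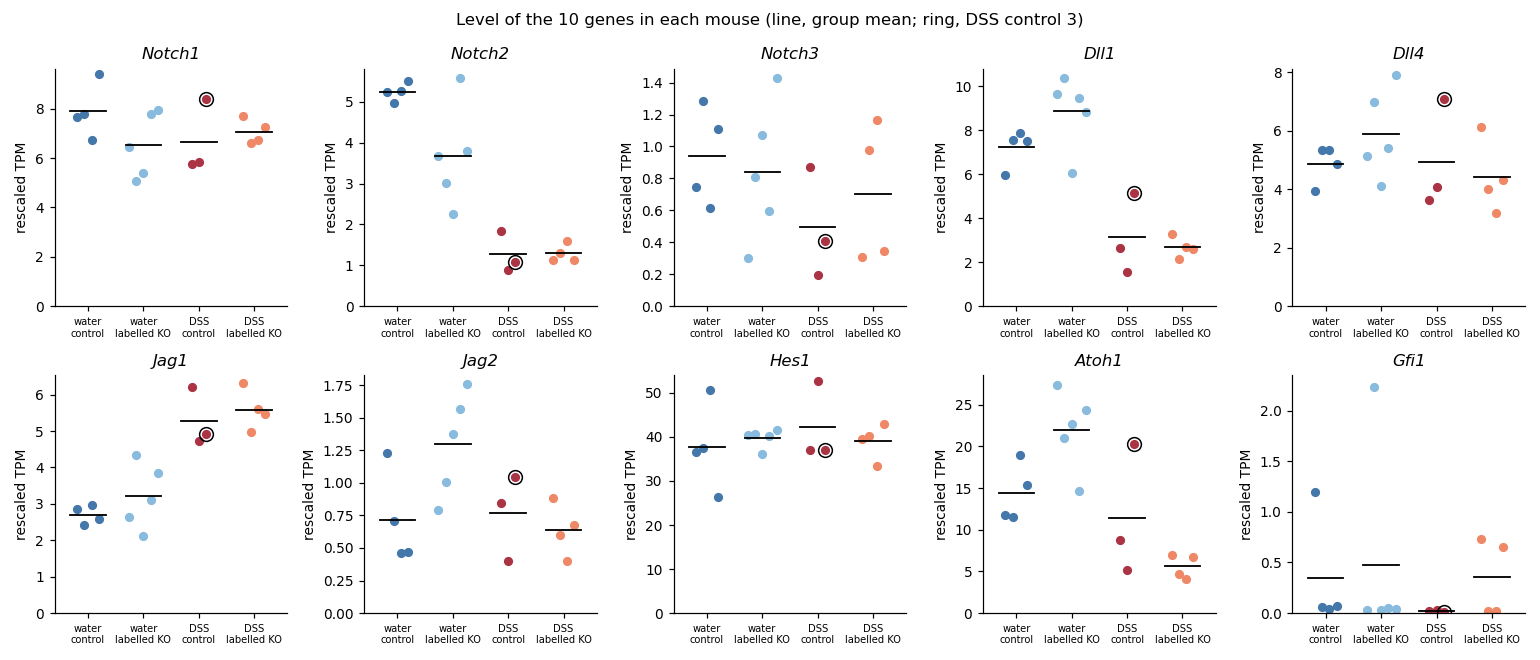
Rescaled TPM (y axis) of each of the 10 genes in the 4 groups (x axis), 1 point per mouse, with a line at the group mean and a ring around DSS control 3. Dll1 and Notch2 lie lower in all 7 DSS mice than in all 9 water mice and Jag1 lies higher, while Hes1 covers the same range in both treatments.

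Dll1 is a Delta ligand that secretory progenitors show to their neighbours. It was at 5.95, 7.57, 7.88 and 7.51 rescaled TPM in the water controls and at 9.64, 10.4, 6.05, 9.46 and 8.82 in the water mice labelled knockout. It was at 2.66, 1.57 and 5.15 in the DSS controls and at 3.27, 2.13, 2.70 and 2.61 in the DSS mice labelled knockout. All 7 DSS mice lay below all 9 water mice, and DSS control 3, the highest of them, lay nearest. The means were 8.14 ± 1.55 (SD, n = 9) and 2.87 ± 1.13 (SD, n = 7), 2.84 times higher in water mice. Dll4, the other Delta ligand, ranged from 3.94 to 7.88 rescaled TPM in water mice, with a median of 5.33, and from 3.18 to 7.08 in DSS mice, with a median of 4.08. The treatments overlapped for Dll4, and the DSS mouse with its highest value was again control 3.

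Jag1, the Jagged ligand found on crypt base and stromal cells, went the other way. It was at 2.85, 2.43, 2.96 and 2.59 rescaled TPM in the water controls and at 2.65, 4.34, 2.12, 3.11 and 3.84 in the water mice labelled knockout. In the DSS controls it was at 6.21, 4.71 and 4.92 and in the DSS mice labelled knockout at 6.32, 4.96, 5.61 and 5.46. Every DSS mouse, control 3 included, lay above every water mouse, and the mean was 1.83 times higher. Jag2 was low in both, at 0.461 to 1.76 in water mice and 0.398 to 1.05 in DSS mice, and overlapped.

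Among the receptors, Notch2 separated the treatments and Notch1 did not. Notch2 was at 5.23, 4.97, 5.25 and 5.51 rescaled TPM in the water controls and at 3.66, 3.02, 2.27, 5.58 and 3.801 in the water mice labelled knockout. It was at 1.85, 0.894 and 1.07 in the DSS controls and at 1.14, 1.298, 1.61 and 1.14 in the DSS mice labelled knockout. All DSS mice lay below all water mice, and the means, 4.37 ± 1.21 and 1.29 ± 0.332 (SD, n = 9 and n = 7), were 3.40-fold apart. Notch1 lay between 5.06 and 9.41 in water mice, with a median of 7.64, and between 5.77 and 8.39 in DSS mice, with a median of 6.71. Notch3 overlapped too, at 0.304 to 1.43 in water mice and 0.196 to 1.17 in DSS mice.

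Markers of other cells moved with Notch2. Of 10 myeloid markers, 6 lay lower in every DSS mouse than in every water mouse, and S100a8 and S100a9, which neutrophils make in large amounts, lay higher. Of all 11262 genes whose mean reached 1 TPM, 7.03% lay lower and 4.37% higher in every DSS mouse. Csf1r, the macrophage growth factor receptor, was at 70.0 to 170 rescaled TPM in water mice and at 0.470 to 2.65 in DSS mice, and Lyz2, the most abundant of the list, averaged 885 and 18.4. The summed myeloid list ranged from 827 to 2023 in water mice and from 132 to 1804 in DSS mice, with S100a8 and S100a9 making up most of that highest sum. Ptprc, the pan-leukocyte marker, was at 8.33 to 32.9 in water mice and at 0 to 4.26 in DSS mice. Of the T cell and innate lymphoid markers 3 of the 3 whose mean reached 1 TPM, and of the B cell and plasma cell markers 3 of 7, were lower in every DSS mouse, with Cd2 (14.7 and 0.0867 on average) and Igkc the most abundant of these lists. Igkc averaged 57983 rescaled TPM in water mice and 729 in DSS mice, 79.5 times higher in water mice, with overlap. The summed B cell and plasma cell markers were uneven, at 2905 to 165482 in water mice and 62.7 to 3468 in DSS mice. The fibroblast markers, led by Dcn, summed to 295 to 1020 in water mice and 105 to 531 in DSS mice with 0 of 8 fully apart. The part of these cells in the level of Notch2 was not tested. In bulk RNA, fewer cells of a type and less RNA per cell cannot be told apart.

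Notch3 followed 3 DSS mice rather than the treatment. It was at 0.875 rescaled TPM in DSS control 1 and at 0.979 and 1.17 in DSS mice labelled knockout 2 and 3, and at 0.196 to 0.408 in the other 4. The same 3 mice had Rgs5, a marker of the mural cells around small vessels, at 22.8, 18.9 and 22.8 and the other 4 at 3.93 to 7.93. The summed mural and smooth muscle markers, led by Acta2, were 48.6 to 57.4 in those 3 mice and 17.6 to 20.8 in the other 4, and the fibroblast sums were 408 to 531 and 105 to 176. In water mice the mural sum was 33.1 to 69.3. The endothelial markers, led by Esam, summed to 12.0 to 32.5 in water mice and 10.4 to 26.4 in DSS mice, with 0 of 9 fully apart. The part of mural cells in Notch3 was not tested.

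**Figure D2:**
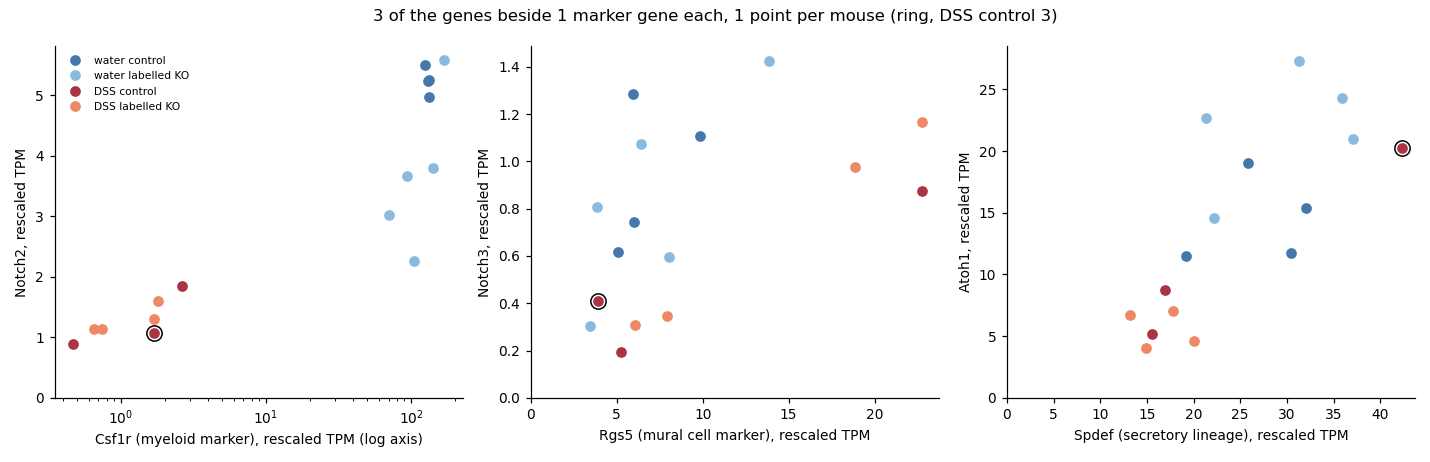
Each point is 1 mouse. The panels plot Notch2 against the myeloid marker Csf1r (log axis), Notch3 against the mural marker Rgs5, and Atoh1 against the secretory factor Spdef, all in rescaled TPM, with a ring around DSS control 3. Csf1r and Notch2 split the mice by treatment, the 3 DSS mice with Rgs5 at 18.9 or more have Notch3 at 0.875 or more, and DSS control 3 has the highest Spdef, 42.3, and an Atoh1 of 20.2.

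Hes1, the target gene, covered one range in both treatments. It was at 36.7, 37.6, 50.6 and 26.5 rescaled TPM in the water controls and at 40.4, 40.8, 36.2, 40.3 and 41.6 in the water mice labelled knockout. It was at 37.1, 52.7 and 37.0 in the DSS controls and at 39.5, 40.3, 33.4 and 43.0 in the DSS mice labelled knockout. The means were 38.9 ± 6.33 (SD, n = 9) and 40.4 ± 6.17 (SD, n = 7). The mean difference on the log2(TPM + 1) scale, DSS minus water, was 0.06 with a pooled SD among mice of 0.23, but it depends on the scaling, as given below.

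Atoh1 was lower in all DSS mice but 1. It was at 11.7, 11.5, 19.0 and 15.4 rescaled TPM in the water controls and at 27.3, 21.004, 22.7, 14.6 and 24.3 in the water mice labelled knockout. In the DSS controls it was at 8.75, 5.19 and 20.2, and in the DSS mice labelled knockout at 7.03, 4.64, 4.03 and 6.70. DSS control 3, at 20.2, lay within the water range, and the other 6 DSS mice, at 4.03 to 8.75, lay below every water mouse. The means were 18.6 ± 5.65 (SD, n = 9) and 8.08 ± 5.60 (SD, n = 7). On the log2 scale the difference was -1.22 with DSS control 3 and -1.46 without it, and it was -0.48 in the control mice alone and -1.80 in the mice labelled knockout alone. Gfi1 had values at or below 0.0714 in 12 mice and between 0.656 and 2.23 in the other 4, spread over 3 groups. Only 15.1% of the 31-base stretches of its listed transcripts are not shared with its other annotated transcripts, so this on-or-off pattern is uncertain, and no direction is given.

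Taking the 7 genes whose mean reached 1 TPM, 1 (Jag1) was higher in every DSS mouse and 2 (Notch2 and Dll1) were lower, against a background of 4.37% and 7.03% of all 11262 genes. In control mice alone the background was 10.2% higher and 14.4% lower, and the same 3 genes stood apart, with Gfi1, whose mean is under 1 TPM, lower as well. In mice labelled knockout alone, where the background was 17.2% higher and 18.1% lower, Atoh1 was lower as well. With DSS control 3 left out, Jag1 stayed higher and Notch2, Dll1 and Atoh1 lower, against 12.0% and 12.1% of all genes. Against the 5 female water mice of cage b alone, Jag1 was again higher and Notch2 and Dll1 lower, beside 6.83% and 10.9% of all genes. Percentile ranks within a mouse, which need no scaling between tables, gave the same 3 genes, beside 9.99% of all genes higher and 5.71% lower. Dll1 ranked at percentile 70.2 to 78.7 in water mice and 58.0 to 70.1 in DSS mice, Notch2 at 59.3 to 69.4 and 53.8 to 58.0, and Jag1 at 58.7 to 66.6 and 69.2 to 73.3.

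The scaling between tables set some of these calls. TPM as deposited put the median gene 0.31 higher in DSS mice on the log2 scale, equal summed TPM 0.35 higher, quantile normalization 0.18 higher and rescaling on 7 epithelial markers 0.20 higher, against 0.00 after the median-of-ratios rescaling. With TPM as deposited the background moved to 18.8% higher and 4.21% lower. Dll1 then overlapped, at 5.40 to 9.24 in water mice against up to 6.23 in DSS control 3, while Notch2 and Jag1 stood apart. With equal summed TPM only Jag1 stood apart, and with the epithelial markers only Dll1 did, on a background of 3.08% higher and 5.60% lower. The mean differences of Dll1, Notch2, Atoh1 and Jag1 kept their direction under all of these scalings. Those of Notch1 and Dll4 changed sign, from -0.03 to 0.29 and from -0.21 to 0.10 with TPM as deposited, where Hes1 went from 0.06 to 0.41 beside the shift of 0.31 in the median gene.

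**Figure D3:**
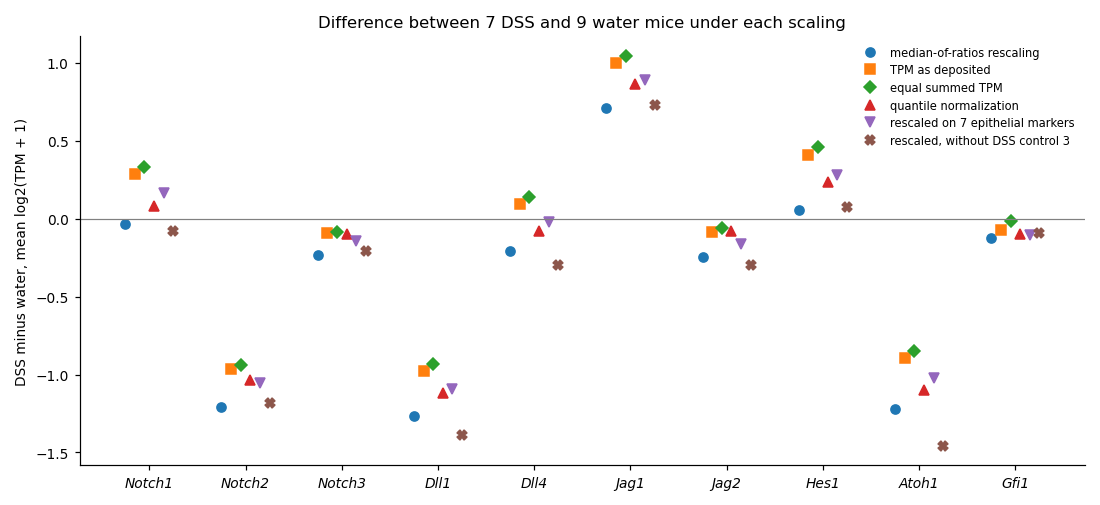
Difference between the means of 7 DSS and 9 water mice on the log2(TPM + 1) scale (y axis) for each of the 10 genes (x axis) under 5 scalings and without DSS control 3. Notch2, Dll1 and Atoh1 lie below 0 and Jag1 above 0 under each of them, and the points of Notch1 and Dll4 fall on both sides of 0.

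Ratios of genes within a mouse are free of the scaling. The ratio of Dll1 to Dll4 was 1.12 to 1.88 in water mice, with a median of 1.48, and 0.384 to 0.848 in DSS mice, with a median of 0.606. In every water mouse Dll1 was thus the more abundant Delta ligand, and in every DSS mouse Dll4 was. Of the 31-base stretches of the listed transcript, 42.0% for Dll1 and 85.3% for Dll4 are not shared with other annotated transcripts of the gene. The ratio of Jag1 to Dll1 was 0.275 to 0.479 in water mice and 0.956 to 3.01 in DSS mice, the lowest DSS value being that of control 3. Notch1 was 1.28 to 2.38 times as abundant as Notch2 in water mice and 3.12 to 7.82 times in DSS mice. None of these 3 ratios overlapped between the treatments. The ratio of Atoh1 to Hes1 was 0.306 to 0.677 in water mice and 0.0985 to 0.236 in 6 DSS mice, and 0.547 in DSS control 3. The ratio of Atoh1 to Dll1 overlapped, at 1.52 to 3.75 in water mice and 1.496 to 3.93 in DSS mice.

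**Figure D4:**
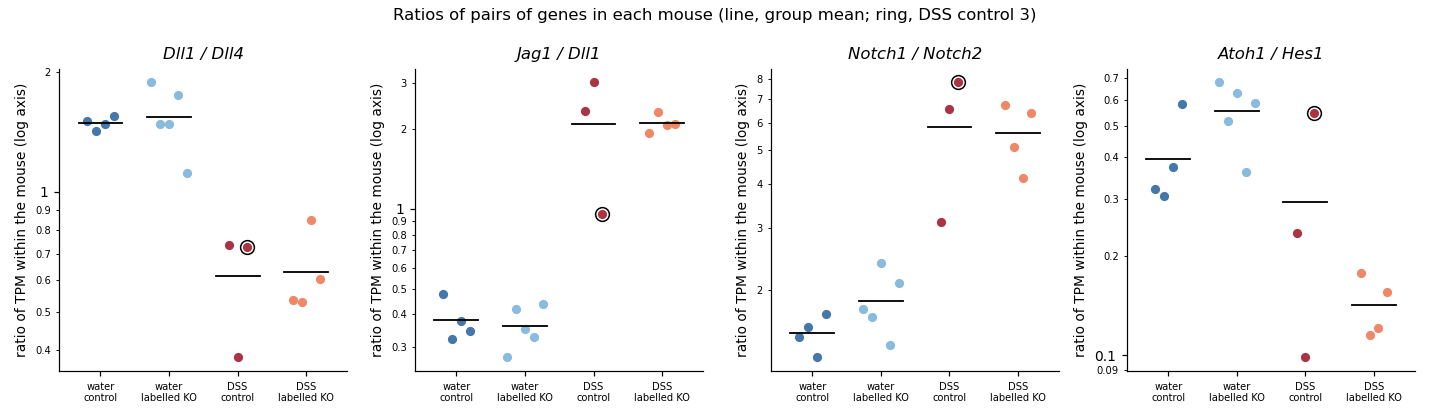
Ratios of deposited TPM within each mouse (y axis, log axis) for Dll1 over Dll4, Jag1 over Dll1, Notch1 over Notch2 and Atoh1 over Hes1 in the 4 groups (x axis), with a line at the group mean and a ring around DSS control 3. The first 3 ratios do not overlap between water and DSS mice, and the ringed mouse lies among the water mice for Atoh1 over Hes1.

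The rest of the pathway and the secretory lineage regulators were described by lists of 80 genes, of which 57 had a mean that reached 1 TPM. Of these, 5 were higher and 2 lower in every DSS mouse than in every water mouse. These are 8.77% and 3.51%, beside the background of 4.37% and 7.03%. Of the 5 higher genes, 4 were secretory lineage regulators, and Hdac1 was the only higher gene of the other lists. The lower ones were Id3 (81.0 and 23.4 rescaled TPM on average in water and DSS mice), an inhibitor of basic helix-loop-helix factors, and Bhlhe40. The higher ones were Hdac1, which takes part in repression by RBPJ, and Foxa1, Sox4, Neurod1 and Insm1 among the secretory lineage regulators. Sox4, a factor of secretory progenitors, averaged 9.43 in water mice and 28.8 in DSS mice, and the enteroendocrine factors Neurod1 and Insm1 averaged 1.61 and 1.48 in water mice and 4.00 and 3.98 in DSS mice. Neurog3, which starts the enteroendocrine program, averaged 0.693 and 3.69 but was listed at 0 in 5 water mice and overlapped. Only 24.2% of the 31-base stretches of its listed transcript are not shared with its other annotated transcripts, so its level is uncertain. Of the 19 secretory lineage regulators 16 had a mean that reached 1 TPM, and 4 were higher and 0 lower. Without DSS control 3 there were 4 higher and 3 lower (Klf4, Foxa3 and Creb3l4), where the background was 12.0% higher and 12.1% lower.

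Counts for the genes that cut and glycosylate the receptors depended on DSS control 3. Adam10, the protease of the first cut, was at 13.5 to 26.6 rescaled TPM in water mice, at 43.8 to 53.0 in 6 DSS mice and at 22.3 in DSS control 3. Of 9 genes of receptor cleavage, 0 were fully apart with that mouse, beside 4.37% of all genes higher and 7.03% lower. Without that mouse 1 was higher and 3 lower, beside 12.0% and 12.1% of all genes. Furin, which processes the receptor before it reaches the surface, averaged 20.5 in water mice and 12.0 in DSS mice, with 18.7 in DSS control 3. Lfng, a fringe enzyme that tunes which ligands a receptor answers to, was at 6.22 to 11.0 in water mice, at 1.98 to 4.73 in 6 DSS mice and at 6.78 in DSS control 3. Eogt had the largest difference upward among the 6 glycosylation genes, at 3.31 and 5.24. Of these 6, 0 were apart with DSS control 3, and without it Eogt was higher and Lfng lower. Of 4 ligand endocytosis genes Neurl1b was lower in every DSS mouse once control 3 was left out, Mib2 averaged 5.08 and 2.20 and overlapped either way, and Mib1 averaged 8.91 and 11.0. Of 4 receptor turnover genes 0 were apart, with Dtx3l at 5.39 and 7.30 and Dtx3 at 3.95 and 1.92, and Notch4, the only other receptor or ligand past the mean, was at 1.14 and 1.57. In the nuclear complex 10 of 11 genes had a higher mean in DSS mice, with a median log2 difference of 0.46 on the rescaled values, and Ncor1 averaged 5.43 and 10.3 and Ctbp1 30.8 and 23.4. Of the 11, Hdac1 was higher in every DSS mouse, and without DSS control 3 Kdm5a and Ep300 were as well.

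Other targets of Notch did not move as one. Nrarp, a feedback inhibitor of the pathway, was at 5.49 to 8.51 rescaled TPM in water mice and at 6.75 to 13.8 in DSS mice. Ccnd1, a cyclin of the cell cycle, averaged 20.9 and 33.4, Sox9, a factor of crypt progenitors, 16.9 and 19.6, and Hes6 34.6 and 31.8, and the treatments overlapped for all 4. Without DSS control 3, Ccnd1 was at 30.0 or more in DSS mice and higher than in every water mouse. Hey1 was low, at 0.274 and 0.435, and Hes5 was listed at 0 in all 16 mice. Among the secretory factors, Spdef, which drives goblet cell maturation, averaged 28.4 and 20.1, Klf4, another goblet factor, 297 and 158, Xbp1, a factor of the secretory pathway, 253 and 109, and Gfi1b 0.371 and 0.241. Rbpj, at 0.913 and 0.897 on average, ranged from 0 to 4.39 deposited TPM between mice. Only 4.66% of the 31-base stretches of its listed transcript are not shared with its other transcripts, so its level is uncertain, and Dclk1, with 2.09%, is uncertain for the same reason.

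Products of secretory cells differed by cell type. Of 10 goblet cell products 3 (Clca1, Fcgbp and Rep15) were lower in every DSS mouse, and 7 when control 3 was left out. Of all genes, 7.03% were lower and 4.37% higher in every DSS mouse, and 12.1% and 12.0% without control 3. The same shares stand beside the counts of the lists below. Muc2, the main gel-forming mucin of the colon, averaged 121 rescaled TPM in water mice, lay at 16.3 to 40.4 in 6 DSS mice and at 132 in DSS control 3. Clca1 averaged 1037 and 89.5 and Sytl2, the goblet product with the largest difference upward, 5.31 and 6.91. Of 5 products of deep crypt secretory cells, 2 (Mptx1 and Hepacam2) were lower in every DSS mouse and 5 without control 3, and Reg4 averaged 819 and 194. The enteroendocrine products were mixed: Chgb (91.7 and 235) and Tph1 (17.4 and 45.6) were higher in every DSS mouse, Chga averaged 75.2 and 103, and Insl5 averaged 61.4 and 24.4 and was lower in every DSS mouse only without control 3. Of 4 tuft cell products, Gnat3 and Trpm5 among them, 0 were apart. Of 9 absorptive colonocyte products, Car4 (287 and 61.2) and Guca2a were lower in every DSS mouse, and Cdhr5 as well without control 3, while Krt20 averaged 171 and 161. The epithelial markers, led by Krt8, were apart in 0 of 7 with DSS control 3 and in 1 (Krt8, lower) without it, and summed to 5118 to 7056 in water mice and 4000 to 6144 in DSS mice.

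Within each treatment the question was whether the 10 genes differ between control mice and mice labelled knockout. None of them did by limma, a linear model over all genes on log2(TPM + 1), at an adjusted p under 0.05. The count was 0 of the 7 genes past the filter in water and 0 of 7 after DSS, where the filter, a mean that reached 1 TPM, removed Notch3, Jag2 and Gfi1 in each. The background was 0.00905% of 11046 genes in water and 0.00918% of 10899 genes after DSS, 1 gene in each. Genes whose genotypes did not overlap made up 1.55% in water and 3.68% after DSS, and 0 of the 10 members were among them in either. At an unadjusted p under 0.05 limma had 2 of the 7 members in water and 0 of the 7 after DSS, beside 5.28% and 2.65% of all genes.

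Those 2 were Atoh1 and Notch2. In water, Atoh1 had a deposited TPM of 10.6, 10.2, 16.8 and 13.7 in controls and of 24.9, 18.7, 20.9, 12.8 and 21.7 in mice labelled knockout. All but 1 of the mice labelled knockout lay above all controls. The log2 difference was 0.58 with an SE of 0.21 (95% confidence interval 0.12 to 1.05), an exact two-sided permutation p of 0.0476 and a limma adjusted p of 0.865. It was 0.65 within cage a and 0.57 within cage b. After DSS the difference of Atoh1 was -0.75 with an SE of 0.43 (95% confidence interval -1.75 to 0.25), an exact permutation p of 0.171 and a limma adjusted p of 1.00. It was -0.22 without DSS control 3 and -0.33 within cage d, which does not hold that mouse. Within cage c it was -1.47, between DSS control 3, the 1 control there, and the 1 mouse labelled knockout. Whether the difference of Atoh1 between genotypes itself differs between water and DSS mice was not tested.

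Notch2 in water had a deposited TPM of 4.75, 4.41, 4.66 and 4.88 in controls and of 3.34, 2.70, 2.08, 4.89 and 3.39 in mice labelled knockout. Of the mice labelled knockout, 4 lay below all controls and 1 lay above them. The log2 difference was -0.44 with an SE of 0.19, an exact permutation p of 0.0476 and a limma adjusted p of 0.865, and it was -0.51 and -0.39 within cages a and b. The fibroblast markers had lower estimates in water mice labelled knockout, with 8 of 8 below 0 and a median of -0.60. Ptprc had an estimate of -0.57. Other marker lists did not all go that way. The myeloid markers had 4 of 10 estimates above 0 (median -0.13). The T cell and innate lymphoid markers had 3 of 4 above 0 (median 0.21), and the B cell and plasma cell markers 6 of 7 (median 1.27). The endothelial and mural medians were both -0.03. The part of these cells in the difference of Notch2 was not tested. After DSS the difference of Notch2 was 0.04 with an SE of 0.25.

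The other 5 genes past the filter had estimates between -0.24 (Notch1) and 0.26 (Dll1) in water and between -0.11 (Dll4) and 0.10 (Notch1) after DSS, with 95% confidence intervals that held 0. For Hes1 the interval of the log2 difference was -0.24 to 0.48 in water and -0.45 to 0.27 after DSS. Jag2, which did not pass the filter, was higher in the water mice labelled knockout by 0.40, and all 5 of them lay above the control median. Its exact permutation p was 0.0556, and its limma adjusted p in a fit without the filter was 0.860. The difference of Jag2 was 0.07 within cage a and 0.66 within cage b. Of the 80 other genes of the pathway and of the secretory lineage, 56 in water and 58 after DSS passed the filter. None was called in either, with 2 and 0 at an unadjusted p under 0.05 by limma. Those 2 were Psenen, a gamma-secretase subunit, and Pou2f3, the tuft cell factor, both with higher estimates.

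**Figure D5:**
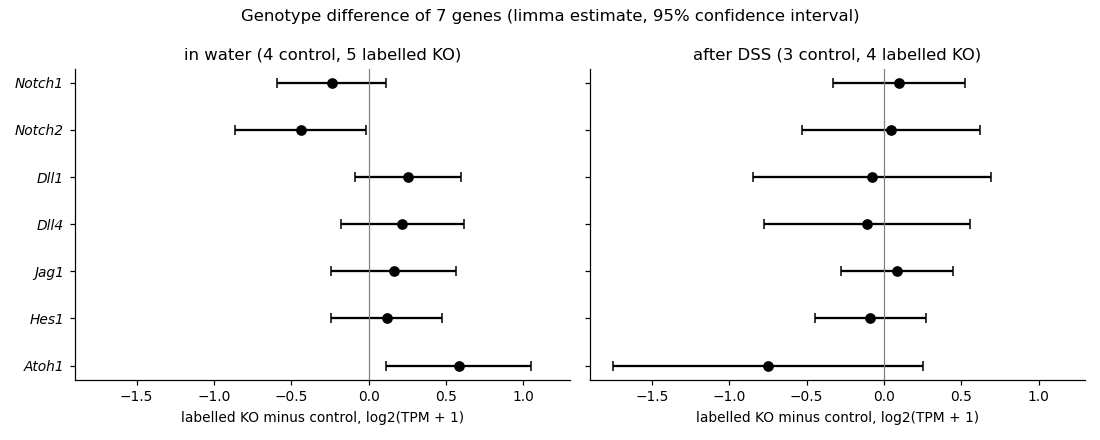
Difference between mice labelled knockout and controls on the log2(TPM + 1) scale (x axis) for the 7 genes past the filter (y axis), in water and after DSS. Points are limma estimates and bars 95% confidence intervals, and only those of Atoh1 and Notch2 in water leave out 0.

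Estimates for the products of mature cells were counted by list, with no test of a list. In water 8 of 10 goblet cell products and 5 of 5 products of deep crypt secretory cells had higher estimates in mice labelled knockout, with medians of 0.25 and 0.66 beside 0.00 for all genes. After DSS 10 of 10 and 5 of 5 had lower estimates, with medians of -0.59 and -0.96 beside 0.02. Without DSS control 3 these were 8 of 10 and 4 of 5, with medians of -0.17 and -0.44 beside 0.03. Spink4 is in both lists. The enteroendocrine products split 4 higher and 4 lower in water and 3 and 6 after DSS. Absorptive colonocyte products had lower estimates for 5 of 9 in water and 7 of 9 after DSS, with medians of -0.07 and -0.33, and for 7 of 9 without DSS control 3. The secretory lineage regulators had higher estimates for 11 of 14 in water, 10 of 17 after DSS and 15 of 17 without DSS control 3. None of the goblet or deep crypt products was called by limma in either treatment, and at an unadjusted p under 0.05 there were Clca1, Spink4 and Reg4 in water and Clca1 and Mptx1 after DSS.

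Correlations among mice of one treatment were computed for 8 pairs of members in each table, 16 relations in all, by exact permutation of the mice. None had an adjusted p under 0.05, the smallest being 0.128. Hes1 and Atoh1 gave a Pearson r of 0.34 and a Spearman rho of 0.43 in the 9 water mice (exact permutation p of 0.408 and 0.250) and of -0.09 and -0.11 in the 7 DSS mice (0.827 and 0.840). Dll1 and Dll4 gave an r of 0.74 and a rho of 0.75 in water mice (exact permutation p of 0.0183 and 0.0255, adjusted 0.128 and 0.355), and the r was 0.54 without the 2 mice farthest from the median of Dll1. In DSS mice they gave an r of 0.77 and a rho of 0.54 (exact permutation p of 0.0401 and 0.236), and 0.63 without the 2 farthest mice. Atoh1 and Dll1 gave an r of 0.84 and a rho of 0.46 in DSS mice (exact permutation p of 0.0329 and 0.302) and 0.70 without the 2 farthest mice, one of which is DSS control 3. Atoh1 and Dll4 in DSS mice fell from 0.78 to 0.12 when the same 2 mice were left out, so that relation rests on them. Notch1 and Notch2 gave an r of 0.78 and a rho of 0.67 in water mice (exact permutation p of 0.0125 and 0.0589), 0.38 without the 2 farthest, and an r of -0.25 in DSS mice.

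The genes whose pattern over the mice was most like that of 4 members were ranked by the mean of the Pearson correlations in 9 water mice and 7 DSS mice, among 6220 genes whose mean reached 5 TPM in each table. For Atoh1 they were Unc119 (0.91), Ramp1 (0.90), Lrrc26 (0.89), Nipal3 (0.88) and Prr15l (0.88). Of the secretory genes looked up beside these, Spink4, a goblet cell product, had the highest value with Atoh1, 0.80. Reg4 had 0.70, Foxa3 0.65, Spdef 0.64 and Hepacam2 0.63. Muc2 had the lowest, 0.38, with 0.08 in water mice and 0.69 in DSS mice. For Hes1 they were Trmt6 (0.85), Galnt11 (0.81), Gpatch1 (0.75), Tmem117 (0.73) and Rtca (0.71). For Notch1 they were Fosb (0.89), Sbno2 (0.89), Ppt2 (0.89), Erf (0.86) and Kdm6b (0.85). For Notch3 they were Apold1 (0.83), Tceal8 (0.83), Spop (0.81), Rgs5 (0.80) and Resp18 (0.79). These means are descriptions over mice that share a table, and they carry no test.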

How the data were processed

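RNA of EpCAM+ cells was analysed from 16 mice, grouped by the sample labels. The authors made stranded poly(A) libraries with single reads of 75 bases and used kallisto and sleuth, with the build mm10 by the submitters' processing notes. The deposited TPM values are given per transcript, for APPRIS principal isoforms only, in 2 tables scaled separately, one per treatment. Each had 29373 lines, of which 385 repeated another and were dropped. Other deposited columns hold the authors' test of genotype and were not used. No column of another sample was present. TPM was summed per gene symbol. Gene positions and exons are from GENCODE M21 (GRCm38). Reads of shared sequence were divided by kallisto, so genes with near-identical copies are uncertain.

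Genotypes were compared within a table with limma (version 3.58.1, R 4.3.3), whose prior variance followed the mean level, fitted to log2(TPM + 1) of genes whose mean reached 1 TPM. Tests were two-sided, with Benjamini-Hochberg adjustment over all genes tested and a threshold of 0.05, and by exact two-sided permutation over 126 splits in water and 35 after DSS. Fold changes on this scale understate those of low genes. The limma p-values set a difference against the spread between these mice, moderated over all genes. The permutation p-values rank it among the splits, and 35 splits allow only coarse values. The fit was tested on simulated data. Across tables, all 16 mice were rescaled by the median of ratios and no test was made. The members, gene lists and tests were chosen with earlier results of these data known. Named genes were the 10 members, 16 further genes of the pathway and of secretory products (1 is not reported here), the genes with the largest difference in each direction per list, the leading marker genes, and the 5 genes most like each of 4 members. The genes Psenen, Pou2f3, Bhlhe40, Hdac1, Foxa1, Sox4, Neurod1, Insm1, Tph1, Fcgbp, Rep15, Guca2a, Spink4, Csf1r, S100a8, S100a9, Neurl1b, Foxa3, Creb3l4, Kdm5a, Ep300, Cdhr5 and Hes5 fall outside that rule and were named after their values were seen. Alternatives were another pseudocount, filters, scalings, covariates and weights, and leaving out each mouse.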

Additional observations from a re-analysis of the deposited data

Results flagged for a closer look

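In 33 groups of 4 or 5 mice, each of 1 gene, the highest and the lowest mouse were compared with the rest, and 3 stood apart by a wide gap, where chance gives about 1 in 20. Gfi1 was at 1.2001 rescaled TPM in water control 1, and at 0.0417 to 0.0714 in the other 3 water controls. Gfi1 was at 2.23 in the water mouse labelled knockout 2, and at 0.0322 to 0.0474 in the other 4. Both values are for a gene with 15.1% of its 31-base stretches outside its other transcripts. Hes1 was at 36.2 in the water mouse labelled knockout 3, and at 40.3 to 41.6 in the other 4, a gap that is narrow beside the 26.5 to 50.6 of the water controls.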

How the results depend on the processing

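The treatment differences of the 10 genes under all alternatives made 250 values, of which 236 counted as the same, 14 as moved and 0 reversed a gene that stood apart. A value counted as the same if it moved by less than the spread between mice. For percentile ranks, which have another unit, it counted as the same if it kept its sign. The number of members that did not overlap between treatments went from 3 to 2 with TPM as deposited, to 1 with equal summed TPM and to 1 with the rescaling on epithelial markers. The members lower in every DSS mouse went from 2 to 1 with TPM as deposited, 0 with equal summed TPM and 1 with the epithelial rescaling, where the member higher in every DSS mouse went from 1 to 0. The background was 11.6% higher and 3.596% lower with equal summed TPM, and 9.99% and 5.27% with quantile normalization.

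For genotype, 0 members were called under each alternative run. The 1 gene called after DSS became 0 with pseudocount 0.1, 0 with no filter, and 0 to 3 with 1 mouse left out, 3 without DSS control 1 and 2 without DSS control 3. The 1 gene called in water became 0 with pseudocount 0.1, 4 with no filter, 0 with a minimum of 5 TPM, 3 with all 4 groups in one fit, and 1 to 2 with 1 mouse left out, 2 without water control 1, water control 3 or the mouse labelled knockout 1. Of 233 genotype differences of the 7 members past the filter, 9 changed sign. The members that did not pass it are not in this count. With 1 mouse left out, Notch3 in water ranged from -0.18 to 0.026, Gfi1 in water from -0.27 to 0.28 and Jag2 after DSS from -0.28 to 0.040. With array quality weights Dll1 was 0.18 and Dll4 0.069 after DSS. With 1 mouse left out, the log2 difference after DSS ranged from -0.095 to 0.22 for Notch2, from -0.40 to 0.30 for Dll1, from -0.29 to 0.17 for Dll4 and from -0.19 to 0.057 for Hes1, and in water from -0.041 to 0.26 for Hes1. The cause was not tested.

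Replicate numbers did not pair the mice: the deviations of same-numbered mice correlated at -0.20, -0.03 and -0.16 after DSS and at 0.03, -0.08, 0.09 and 0.09 in water. With the replicate block, 0 genes were called after DSS, 0 in water, and 0 members in either, with 171 and 616 genes at an unadjusted p under 0.05 by limma. TPM gives no depth, so low genes such as Notch3, Jag2 and Gfi1 have no counting error here.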
